A study of Mus musculus with 9 samples.

Results

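Cytosolic RNA and DNA sensing genes were examined in murine plasmacytoid dendritic cells (pDCs), a subset specialised in the rapid release of type I IFN when endosomal TLRs are ligated. The genes were chosen by name as 10 components of these pathways, and each of the 10 names matched a single row among the 52550 genes listed. They comprised the RIG-I-like receptors *Ddx58* (RIG-I), *Ifih1* (MDA5) and *Dhx58* (LGP2), the adaptors *Mavs* and *Tmem173* (STING), the effectors *Zbp1*, *Eif2ak2* (PKR) and *Adar*, and the kinases *Tbk1* and *Ikbke* (IKK-epsilon). The RNA-Seq design had 9 samples, with 3 from each of 3 *Ncf1* genotypes. These were WT (G/G) mice and *Ncf1*-KI mice of strain C57BL/6 that carried 1 (G/A) or 2 (A/A) altered alleles, in which a G-to-A base change replaces an arginine of NCF1, a NOX2 subunit, with histidine. The mice are described as females of 10 to 12 weeks, and splenic pDCs were sorted as CD11c-intermediate SiglecH+ PDCA1+ cells. All samples received R848, a ligand of TLR7 and TLR8, at 10 μg/mL for 12 hours. The library of A/A replicate 1 is described below, and the other 8 were not analysed here, so no genotype effect was computed and no value carries a replicate error. The sources used here do not state whether the cells of 1 sample came from several animals.

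These proteins detect or act on nucleic acids outside the endosome, or relay the signal of those that do. RIG-I and MDA5 bind double-stranded or uncapped viral RNA and signal through MAVS on mitochondria, whereas cGAS detects cytosolic DNA and signals through STING on the endoplasmic reticulum. Both routes reach TBK1 and IKK-epsilon, which phosphorylate IRF3 and IRF7. ZBP1 binds Z-form nucleic acids and can start cell death, PKR shuts down translation when it meets double-stranded RNA, and ADAR edits adenosines in such RNA, which hides it from MDA5. R848 is sensed by endosomal TLR7, a separate route to type I IFN, and many of the cytosolic sensors are themselves IFN-stimulated genes. pDCs are known for their reliance on the endosomal route.

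Reads assigned to the listed genes summed to 31408298, of which the 10 genes took 105204, or 0.335%. Levels are given as CPM, the reads of a gene per 1000000 of these assigned reads. TPM also divides by the gene's annotated exon length, which allows different genes to be compared. Brackets give 95% intervals, which cover counting error only, and percentiles refer to the genes with reads. Among lists of cell type markers, the 11 pDC markers had a median of 251 TPM, from 34.0 (*Tcf4*) to 6001 (*Ly6d*). The medians were 32.3 TPM for 7 conventional DC markers, 22.1 for 5 macrophage markers, 15.4 for 5 neutrophil markers and 1.29 for 5 B cell markers. *Ccl22* at 1507 TPM and *Cd68* at 616 were the highest of the conventional DC and macrophage lists. *Fscn1* (370) and *Lyz2* (410) also exceeded the pDC median, and the other markers of both lists lay below it. The neutrophil markers *S100a8* (55.0 TPM) and *S100a9* (47.9) exceeded the lowest pDC marker, *Tcf4*, and *Csf3r* stood at 15.4. *Cd209a*, *Ly6g*, *Mpo*, *Pax5*, *Cd3e*, *Cd3d*, *Cd3g*, *Bcl11b* and *Hbb-bs* were listed at 0. All 3 NK cell markers were also listed at 0, and *Cd28* (14.7 TPM) and *Hba-a1* (9.08) were the only T cell and erythroid markers with reads. The part of other cells in the levels below was not tested, and in a sorted population a change in cell number and a change in RNA per cell cannot be told apart. Although the mice are described as female, 4 Y-linked genes summed to 234 CPM and *Xist* was listed at 0. By these genes the RNA of this library is male, unlike that description, and the reason was not tested.

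All 10 genes had reads in A/A replicate 1, from 190 for *Ikbke* to 26901 for *Ifih1*. Per exon length, *Dhx58* was the highest at 431 TPM (95% CI, 424 to 437), followed by *Tmem173*, *Zbp1*, *Ifih1*, *Ddx58*, *Adar*, *Tbk1*, *Eif2ak2*, *Mavs* and *Ikbke*, the lowest at 1.74 TPM (95% CI, 1.51 to 2.01). The highest and the lowest level differed 247-fold (95% CI, 214 to 286) per exon length, 217-fold per longest transcript and 94.7-fold per longest coding length. The median of the 10 genes was 135 TPM, beside 4.94 TPM over all genes with reads. In 7 of the 10 genes the level lay above the 90th percentile, which is 74.5 TPM and which 10% of genes with reads exceed by definition. *Eif2ak2* stood at percentile 86.6, *Mavs* at 71.4 and *Ikbke* at 33.8. Neighbours in this order differed beyond counting error in each of 9 cases. The narrowest gaps were those of *Dhx58* over *Tmem173*, at 1.03-fold (95% CI, 1.01 to 1.06), which turned to 0.689 per coding length, and of *Adar* over *Tbk1*, at 1.07-fold (95% CI, 1.03 to 1.10). These ratios compare genes within 1 library, and the spread between animals was not measured.

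**Figure D1:**
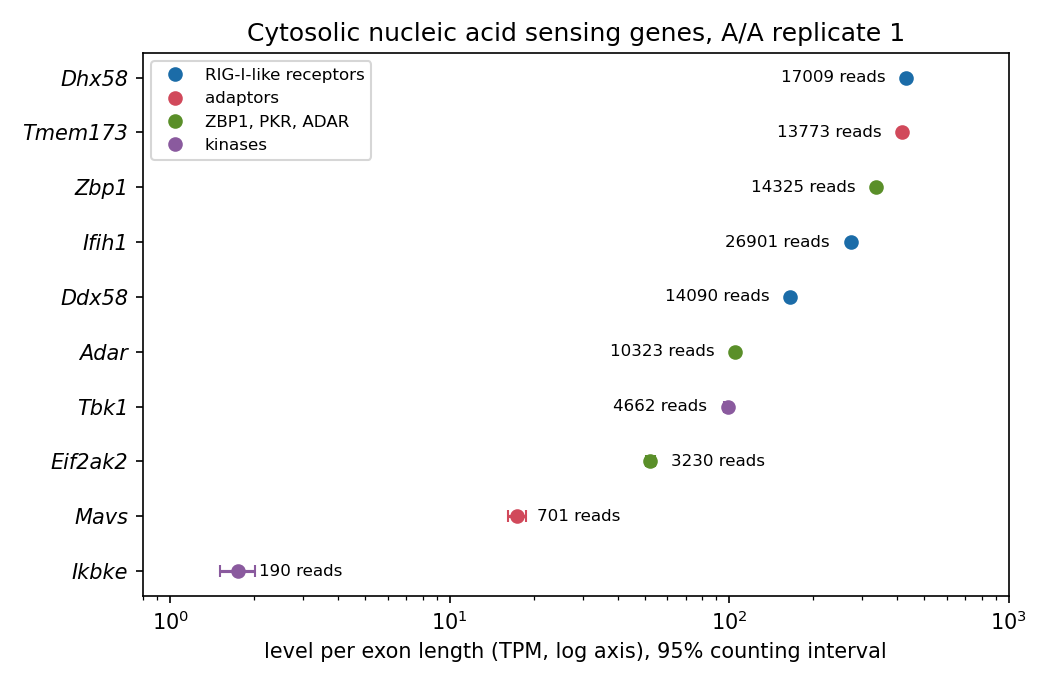
Level per exon length (x axis, TPM, log scale) of each of the 10 genes (y axis) in A/A replicate 1, with 95% counting intervals as bars and the reads of each gene beside its point. Colours give the role, and the 8 upper genes lie between 52.3 and 431 TPM, far to the right of *Mavs* at 17.4 and *Ikbke* at 1.74.

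**Figure D2:**
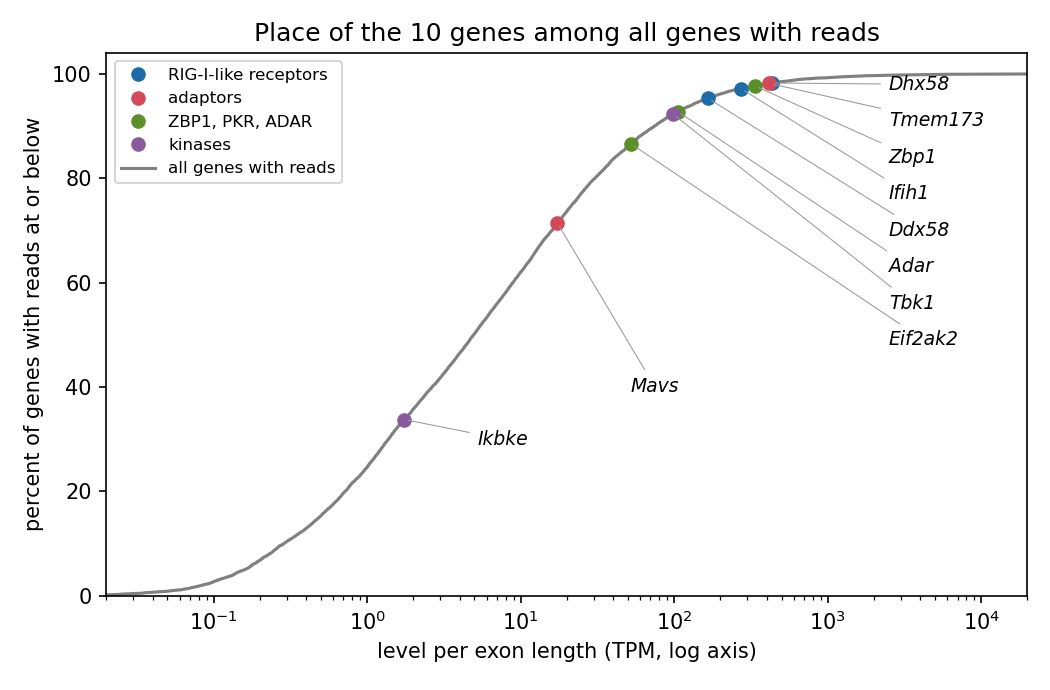
Cumulative curve of all genes with reads (y axis, percent of genes at or below a level; x axis, TPM, log scale) with the 10 genes marked as coloured points. The 3 RIG-I-like receptors, *Tmem173* and *Zbp1* sit on the upper plateau from percentile 95.3 to 98.3, and *Ikbke* sits below the median gene.

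The RIG-I-like receptors were all expressed at a high level. *Ifih1* (ENSMUSG00000026896.14, chromosome 2, 62595798 to 62646255, minus strand, GRCm38), which encodes the sensor of long double-stranded RNA, had 26901 reads, or 856 CPM (95% CI, 846 to 867), and no other member had as many. *Dhx58* (ENSMUSG00000017830.15, chromosome 11, 100694884 to 100704271, minus strand) encodes LGP2, a helicase without signalling domains that modulates the other receptors, and had 17009 reads or 542 CPM (95% CI, 533 to 550). *Ddx58* (ENSMUSG00000040296.15, chromosome 4, 40203773 to 40239828, minus strand), the sensor of short RNA with a 5′ triphosphate, had 14090 reads, or 449 CPM (95% CI, 441 to 456). The order of the 3 genes changed once length was considered. *Dhx58* has 3272 exon bases, whereas *Ifih1* has 8165 and *Ddx58* has 7050. Per exon length *Dhx58* exceeded *Ifih1* by 1.58-fold (95% CI, 1.55 to 1.61), although *Ifih1* had more reads. *Ifih1* in turn exceeded *Ddx58* by 1.65-fold (95% CI, 1.62 to 1.68), and that order held per transcript length and per coding length as well. With the longest coding length in place of all exons, *Dhx58* and *Ifih1* changed places, at 251 and 263 TPM. Exons of *Dhx58os*, an antisense gene with 117 reads, overlapped 4.31% of the exon bases of *Dhx58*. The use of strand in counting is not given in the sources used here, so reads of the overlap cannot be assigned.

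The start regions of the receptor genes bear on their known response to IFN, since the transcription factor ISGF3 binds a repeated GAAA element, the IFN-stimulated response element (ISRE). A window from 250 bases before to 50 bases after each start in RefSeq (GRCm38.p6) was found for 7 of the 10 genes, with 9 windows in all, and not for *Dhx58*, *Tmem173* or *Zbp1*. The ISRE core, sought on both strands as the letters GAAA, any 2 bases (NN) and GAAA again, occurred in the windows of *Ifih1*, *Ddx58* and *Eif2ak2*, and in those of 3.99% of all 27025 genes in that collection. In each case the match lay just after the annotated start. The 3 matches are printed here with the core in capitals, 5′ to 3′ on the strand of the gene, to let the spacing and the flanks be compared.
Ifih1, chr2:62646206-62646235, bases 33 to 42 after the start: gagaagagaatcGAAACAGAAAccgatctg
Ddx58, chr4:40239804-40239833, bases 3 to 12, core on the opposite strand: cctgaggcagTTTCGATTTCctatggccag
Eif2ak2, chr17:78882535-78882564, bases 19 to 28: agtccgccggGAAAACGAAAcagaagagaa
The windows of *Mavs*, *Adar*, *Tbk1* and *Ikbke* did not hold these letters. The letters TATAAA occurred in the *Ddx58* window and in those of 15.7% of all genes. Such a match is a description of letters in the window and says nothing of binding in these cells.

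The adaptors stood far apart. *Tmem173* (ENSMUSG00000024349.9, chromosome 18, 35733678 to 35740554, minus strand) had 13773 reads, 439 CPM (95% CI, 431 to 446) and 416 TPM (95% CI, 409 to 423), at percentile 98.2. *Mavs* (ENSMUSG00000037523.13, chromosome 2, 131234063 to 131248025, plus strand) had 701 reads, 22.3 CPM (95% CI, 20.7 to 24.0) and 17.4 TPM (95% CI, 16.1 to 18.7), at percentile 71.4. The adaptor of the DNA route was thus 24.0-fold above that of the RNA route (95% CI, 22.2 to 25.9), and 26.1-fold above it with either of the other lengths. The RIG-I-like receptors were also well above *Mavs*, with *Dhx58* 24.8-fold, *Ifih1* 15.7-fold and *Ddx58* 9.54-fold higher. The ratio of *Ddx58* had a 95% CI of 8.84 to 10.3 and was 15.9-fold per longest transcript. *Mavs* was lower than *Irf3*, at 0.590 of its level (95% CI, 0.537 to 0.648), or 0.381 per longest transcript. It was 1.92-fold above *Traf3* (95% CI, 1.74 to 2.13), a ubiquitin ligase that links MAVS to TBK1, but slightly below it, at 0.987, per coding length. On the DNA side, *Mb21d1*, which encodes cGAS, had 461 reads and 9.25 TPM (95% CI, 8.45 to 10.1), and *Tmem173* exceeded it by 45.0-fold (95% CI, 41.0 to 49.5). No 50-base window of the annotated transcripts of *Mavs*, *Tmem173*, *Ifih1* or *Zbp1* occurred in a transcript of another gene.

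Among the effectors, *Zbp1* (ENSMUSG00000027514.14, chromosome 2, 173206612 to 173218923, minus strand) had the highest level, with 14325 reads, 456 CPM (95% CI, 449 to 464) and 336 TPM (95% CI, 331 to 342). *Adar* (ENSMUSG00000027951.16, chromosome 3, 89715022 to 89753446, plus strand) had 10323 reads, 329 CPM (95% CI, 322 to 335) and 105 TPM (95% CI, 103 to 107). *Eif2ak2* (ENSMUSG00000024079.4, chromosome 17, 78852564 to 78882573, minus strand) had 3230 reads, 103 CPM (95% CI, 99.4 to 106) and 52.3 TPM (95% CI, 50.5 to 54.2). These levels put *Zbp1* at 3.19-fold above *Adar* (95% CI, 3.11 to 3.27) and *Adar* at 2.01-fold above *Eif2ak2* (95% CI, 1.93 to 2.09). ZBP1, ADAR and PKR all bind double-stranded or Z-form RNA, so they can meet the same ligands. *Adar* gives rise to a long, IFN-inducible protein and a short, constitutive one from different starts, and a single value for the gene does not separate them. Exons of *Chrnb2*, on the opposite strand and with 1096 reads, overlapped 16.8% of the exon bases of *Adar*. With these bases removed from its length and all reads kept, which can only raise it, the level of *Adar* was 127 TPM. For *Eif2ak2* the overlap was 4.32%, with *Gm26637* and *n-R5s29*.

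The kinases stood far apart as well. *Tbk1* (ENSMUSG00000020115.3, chromosome 10, 121546455 to 121586787, minus strand) had 4662 reads, 148 CPM (95% CI, 144 to 153) and 98.7 TPM (95% CI, 95.9 to 102), at percentile 92.2. *Ikbke* (ENSMUSG00000042349.13, chromosome 1, 131254343 to 131279606, minus strand), its close homolog, had 190 reads, 6.05 CPM (95% CI, 5.25 to 6.97) and 1.74 TPM, at percentile 33.8. *Tbk1* was therefore 56.6-fold above *Ikbke* per exon length (95% CI, 48.9 to 65.8). The ratio was 47.5 per longest transcript and 24.1 per coding length. The 9018 annotated exon bases of *Ikbke* come from 7 transcripts, 3 of them coding, and its longest transcript has 5856 bases. Compared with the canonical IKK subunits, *Tbk1* was 1.55-fold above *Chuk* (95% CI, 1.48 to 1.61) and 3.65-fold above *Ikbkb* (95% CI, 3.51 to 3.79), the second of which turned to 0.777 per coding length.

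The start regions of the kinase genes also differed in sequence, and 120 bases before each RefSeq start are shown for this reason. They are printed 5′ to 3′ on the strand of the gene, with every CpG in capitals. The annotated span of *Ikbke* given above ends at 131279606, so part of its stretch lies inside that span. For *Tbk1*, the first bases after the RefSeq start were not found in its annotated transcripts.
Tbk1, chr10:121586795-121586914: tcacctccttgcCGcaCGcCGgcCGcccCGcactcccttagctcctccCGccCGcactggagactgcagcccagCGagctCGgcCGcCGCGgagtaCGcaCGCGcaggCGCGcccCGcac
Ikbke, chr1:131279564-131279683: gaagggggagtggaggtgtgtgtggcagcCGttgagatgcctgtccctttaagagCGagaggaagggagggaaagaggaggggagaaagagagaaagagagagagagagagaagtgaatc
The stretch of *Tbk1* holds 18 CpG and that of *Ikbke* holds 2. Over the whole 300-base window *Tbk1* has 37 CpG, at percentile 94.7 of all windows, and *Ikbke* has 4, at percentile 34.7. Of the other windows of the 10 genes, that of *Mavs* had 19, *Eif2ak2* 17, *Ddx58* 15 and *Ifih1* 14, and those of *Adar* had 6, 34 and 12. The median was 7 over all windows. A link between CpG and level was not tested. No methylation was measured.

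The partners of these genes were described by lists assembled by hand. Of 26 genes of RIG-I-like receptor signalling, 24 had reads, and 10 were above the 90th percentile. The median was 47.4 TPM over all 26 and 61.8 TPM over the 24 with reads. *Irf7*, the factor that drives *Ifna* transcription, was the highest at 2309 TPM, followed by *Pcbp1* (474) and *Trim25* (235). *Trim25* and *Rnf135* encode ubiquitin ligases that activate RIG-I. *Ddx58* was 1.37-fold above *Rnf135* (95% CI, 1.31 to 1.42), or 2.30-fold per longest transcript, and at 0.703 of the level of *Trim25* (95% CI, 0.688 to 0.720), a relation that turned to 1.24 per longest transcript. *Zcchc3* (3.50 TPM) and *Nlrx1* (1.09), the latter a mitochondrial inhibitor of MAVS, were the lowest with reads. *Rnf125*, a ligase that marks RIG-I for degradation, and *Trim31* were listed at 0, below the floor of 3 reads, or 0.0955 CPM, used here for such genes.

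Of 23 genes of the cGAS and STING pathway, 22 were matched to a single row, as *Rnf26* had several. All 22 had reads, with a median of 21.2 TPM, and 8 were above the 90th percentile. The highest were *Trex1* (2939 TPM), an exonuclease that removes cytosolic DNA, *Ifi204* (873), a DNA sensor of the p200 family, and *Surf4* (621), which returns STING to the endoplasmic reticulum. *Tmem173* stood at 0.142 of the level of *Trex1* (95% CI, 0.139 to 0.144), or 0.281 per coding length, but 95.8% of the 50-base windows of *Trex1* occur in the transcripts of *Atrip*, so its level is uncertain. In *Ifi204* 20.0% of the windows occur in other genes, several of its own family among them. *Enpp1* (0.420 TPM), which degrades the messenger cGAMP outside the cell, and *Nlrc3* (0.117), an inhibitor of STING, were the lowest.

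Of 15 adaptors and regulators of TBK1 and IKK-epsilon, 14 had reads and 2 were above the 90th percentile, with a median of 27.1 TPM over all 15. *Sqstm1*, an autophagy receptor with 15.5% of its windows shared with *Mrnip*, reached 2026 TPM, followed by *Tank* (89.3) and *Chuk* (63.9). *Tbk1* was 1.11-fold above its scaffold *Tank* (95% CI, 1.06 to 1.15), but at 0.633 of it per longest transcript. The lowest were *Tbkbp1* (1.35), another scaffold of TBK1, and *Mib1* (1.29), and *Calcoco2* was listed at 0. Of the 13 cell death partners of ZBP1, all had reads, with a median of 37.7 TPM, and 6 were above the 90th percentile. *Gsdmd* (262 TPM) and *Casp1* (187) were the highest, and *Casp6* (5.12) and *Nlrp3* (1.63) the lowest. *Zbp1* exceeded *Ripk3*, the kinase it engages in necroptosis, by 19.6-fold (95% CI, 17.9 to 21.5), *Ripk1* by 15.5-fold (95% CI, 14.9 to 16.3) and the executioner *Mlkl* by 3.19-fold (95% CI, 3.06 to 3.32). Per coding length the ratios to *Ripk3* and *Mlkl* rose to 35.7 and 5.61, and that to *Ripk1* fell to 10.5.

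Of the 14 genes around PKR and the other kinases of eIF2α, all had reads, with a median of 48.3 TPM, and 3 were above the 90th percentile. These were *Ddit3* (280.4 TPM) and *Atf4* (270.01), transcription factors of the integrated stress response, and *Ppp1r15a* (144), which reverses phosphorylation of eIF2α. *Eif2ak2* was the highest of the 4 eIF2α kinases. It was 1.36-fold above *Eif2ak1* (95% CI, 1.29 to 1.43), which responds to heme and mitochondrial stress, 4.37-fold above *Eif2ak3* (95% CI, 4.05 to 4.72), which responds to misfolded protein, and 11.3-fold above *Eif2ak4* (95% CI, 10.2 to 12.6), which responds to amino acid shortage. It stood at 0.899 of the level of *Eif2s1*, which encodes its substrate (95% CI, 0.857 to 0.943). Per coding length the ratios were 8.02 to *Eif2ak3*, 24.8 to *Eif2ak4* and 0.568 to *Eif2s1*. Of the 50-base windows, 9.22% of those of *Eif2ak1*, 5.71% of *Eif2ak3* and 2.88% of *Eif2ak2* occur in other genes, and none of *Eif2ak4*. *Tarbp2* (8.28 TPM), which restrains PKR, and *Eif2ak4* (4.62) were the lowest of this list. Of 13 genes for RNA editing and binding of double-stranded RNA, 9 had reads and none was above the 90th percentile. The median was 2.92 TPM over all 13 and 9.84 TPM over the 9 with reads. *Zfr* (55.2 TPM) and *Stau1* (36.4) were the highest, and *Dicer1* (2.23) and *Dhx9* (2.04) the lowest with reads. The other editing enzyme *Adarb1*, its relative *Adarb2*, and *Adad1* and *Adad2* were listed at 0, so that of these 5 genes *Adar* alone had reads.

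The endosomal receptors and their helpers, the route that R848 uses, had the list median nearest to that of the 10 sensing genes. All 10 had reads, with a median of 162 TPM, and 6 were above the 90th percentile. The chaperone *Unc93b1* had 1703 TPM, *Hsp90b1* 390.3 and *Myd88* 344. Of the receptors themselves, *Tlr7* had 131 TPM, *Tlr9* 29.4 and *Tlr13* 28.2, each below the list median. *Tlr3* (9.59), the endosomal receptor for double-stranded RNA, and *Tlr8*, with 130 reads, were the lowest. *Ifih1*, which senses the same kind of RNA in the cytosol, exceeded *Tlr3* by 28.5-fold (95% CI, 26.2 to 30.9). Set against *Tlr7*, *Ifih1* was 2.09-fold (95% CI, 2.03 to 2.14) and *Ddx58* 1.27-fold (95% CI, 1.23 to 1.30) higher. Per longest transcript these ratios were 2.97 and 2.20, and per coding length 4.28 and 2.48. On the DNA side *Tmem173* was 14.2-fold above *Tlr9* (95% CI, 13.3 to 15.0), or 30.4-fold per coding length, whereas *Mb21d1*, at 9.25 TPM, lay below *Tlr9*, at 29.4.

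**Figure D3:**
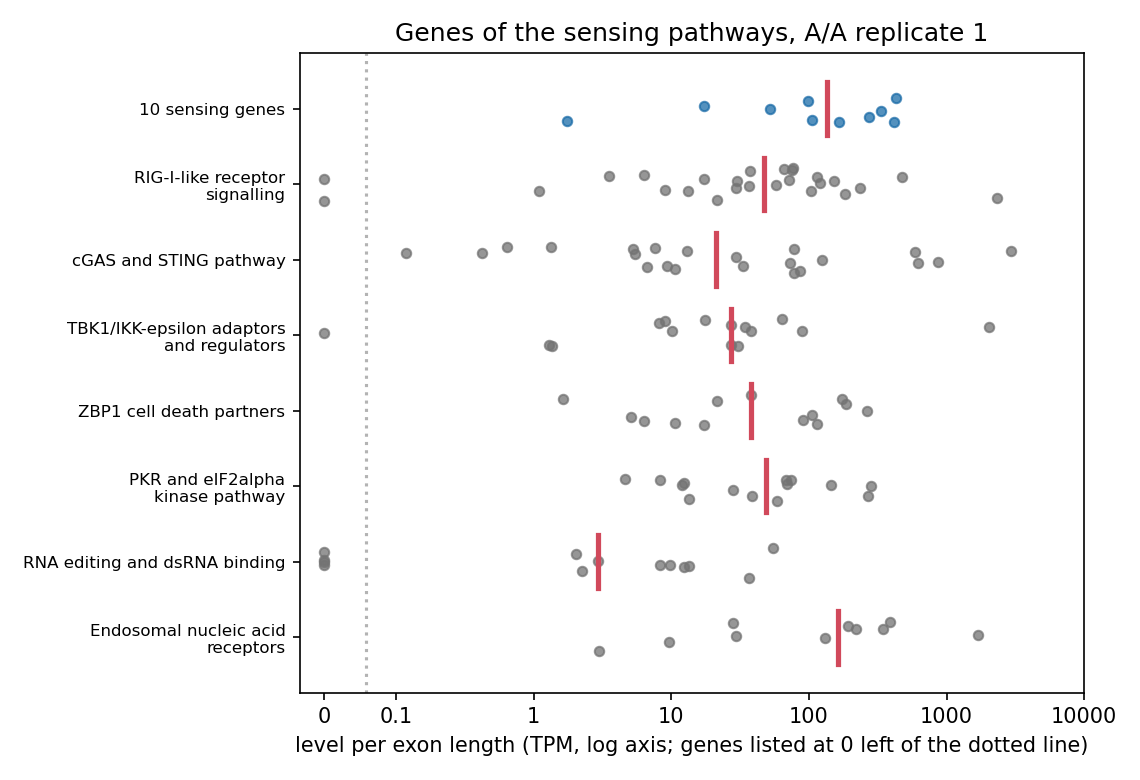
Level per exon length (x axis, TPM, log scale) of every gene in each list (y axis), 1 point per gene, with the list's median as a red bar and genes listed at 0 left of the dotted line. The medians run from 2.92 TPM for RNA editing and binding of double-stranded RNA to 162 for the endosomal receptors and their helpers. The 10 sensing genes have a median of 135.

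The choice of length moved the levels but kept the lower places of the order. *Adar*, *Tbk1*, *Eif2ak2*, *Mavs* and *Ikbke* held the sixth to the tenth place under all 3 lengths. Of the 45 pairs among the 10 genes, 1 turned with the longest transcript, *Zbp1* over *Ifih1*, and 3 turned with the longest coding length, all of them pairs of *Dhx58* with *Tmem173*, *Zbp1* or *Ifih1*. With reads alone and no length, 5 pairs turned. *Tbk1* and *Eif2ak2* came within 1.02-fold of each other per coding length, from 1.89-fold per exon length (95% CI, 1.80 to 1.97).

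**Figure D4:**
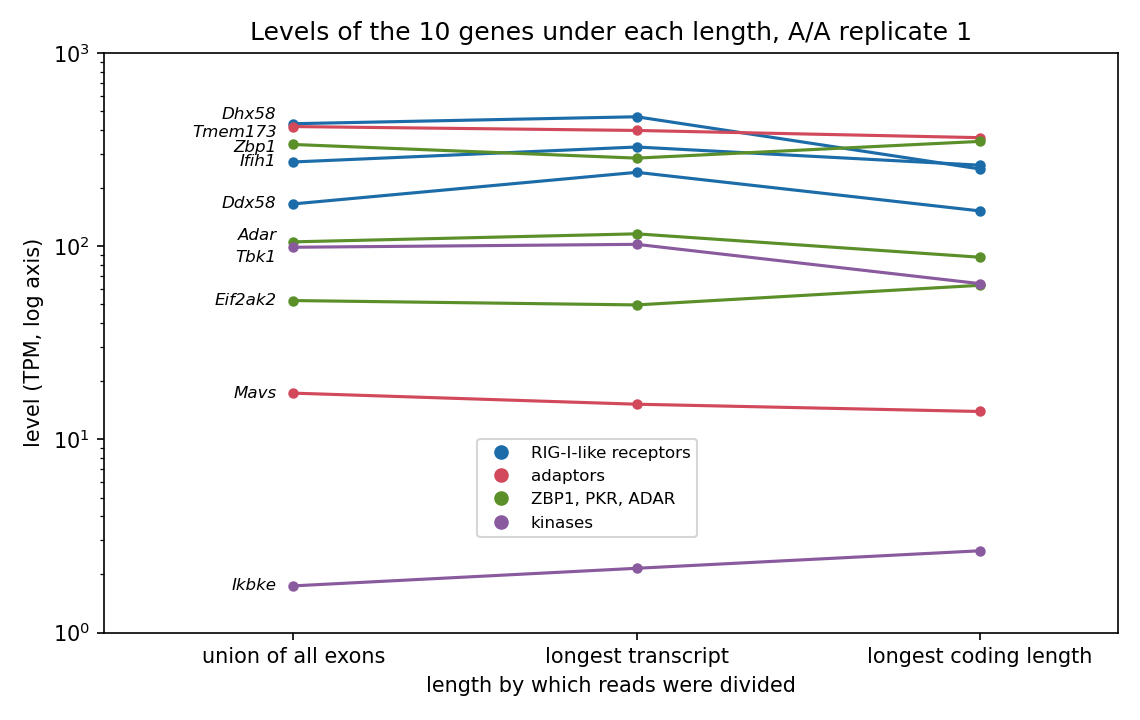
Levels of the 10 genes (y axis, TPM, log scale) when reads were divided by the union of annotated exons, the longest transcript or the longest coding length (x axis), with 1 line per gene. Lines of *Dhx58*, *Tmem173*, *Zbp1* and *Ifih1* cross between 251 and 468 TPM, while *Mavs* (13.9 to 17.4) and *Ikbke* (1.74 to 2.65) stay apart from the rest.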

How the data were processed

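Per the labels, total RNA of sorted pDCs was extracted with TRIzol and mRNA libraries were made. According to the study's methods they were sequenced as paired-end reads and genotypes were compared by the authors with DESeq2. The submitters' processing notes name HISAT2, StringTie and the builds mm8 and mm10, without roles; the counting tool, annotation and use of strand are not given in the sources used here. The authors deposited a normalized signal per gene, without a stated unit. Its 17664 values above 0 were whole multiples of 1.19 (100%), within 0.001 of a step and in proportion more for large values, as counts divided by a library factor would be. Dividing by that step gave counts, called reads here. Whether a count is a read or a read pair is not given in the sources used here.

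Of the gene identifiers, 99.7% matched GENCODE M21 (GRCm38) without versions, and gene spans were identical for 95.2% of these and for 9 of the 10 genes studied, all but *Tmem173*. TPM used the union of M21 exons over 17632 genes with reads. Levels had Wilson 95% intervals, and ratios of genes had exact binomial intervals of their reads, divided by length. Percentiles counted ties by their midpoint. Shared sequence was counted as identical 50-base windows, on either strand, in M21 transcripts; reads with mismatches and unannotated copies were not examined. Start windows came from RefSeq (GRCm38.p6). Python 3.11.15, numpy 2.4.6, scipy 1.17.1, pandas 2.3.3 and matplotlib 3.10.9 were used. Recovery was tested on 3 simulated libraries of 52550 genes, and 100% of reads were recovered. These libraries were built as counts over 1 factor, so the test cannot tell whether the deposited signal has that form.

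Members, lists and pairs of genes were chosen with earlier results of these data known. Of each pathway list the text names the 3 highest genes, the 2 lowest above 3 reads, those listed at 0 and the paralogs of the 10 genes; other partners were named after their values were seen. A few genes that this rule names, and 1 motif, are not reported here. Alternatives were other percentile bases, the total without the 10 genes with the most reads, the longest transcript, coding length or unoverlapped exon bases as length, CPM, lists without genes at 0, and a pseudocount of 0.1 in place of 1 on the log2 scale. Differences between genotypes were not tested.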

Additional observations from a re-analysis of the deposited data

How the results depend on the processing

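No paired analysis was possible because 1 library was analysed, and no replicate could be left out. The median of the 10 genes, 135 TPM, was 179 with the longest transcript, 120 with the longest coding length and 384 in CPM. It did not change when limited to genes with reads, since all had them. In CPM, longer genes gain by construction. The list medians were then 95.5 for RIG-I-like receptor signalling and 34.7 for the cGAS and STING pathway. Adaptors and regulators of TBK1 and IKK-epsilon had 49.7, partners of ZBP1 69.4, and PKR and the eIF2α kinases 97.3. RNA editing and binding of double-stranded RNA had 9.68, and the endosomal receptors and their helpers 215. Limited to genes with reads, the median of RIG-I-like receptor signalling was 61.8 TPM and that of RNA editing and binding 9.84 TPM. The levels of all 10 genes moved beyond their counting intervals with the longest transcript (6 higher, 4 lower) and with the coding length (3 higher, 7 lower). Leaving out overlapped exon bases while keeping their reads raised 4 by construction, of which 3 moved beyond counting error. Without the 10 genes with the most reads in the total, all 10 CPM rose by construction. Percentiles over all genes rose and those over genes with at least 10 reads fell by construction, in 10 of 10 genes. A pseudocount of 0.1 moved 1 of 10 log2 levels beyond counting error. Depth limited *Ikbke*, with 190 reads, more than the other 9 genes.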

Other observations

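Enzymes that act on nucleotides or nucleic acids stood at very different levels in A/A replicate 1. *Samhd1*, which depletes nucleotides and acts at stalled forks, had 64925 reads and 588 TPM (95% CI, 583 to 592), at percentile 98.8. The subunits of RNase H2, which removes ribonucleotides from DNA, had 10.7 (*Rnaseh2a*), 5.28 (*Rnaseh2b*) and 5.46 TPM (*Rnaseh2c*), and in the last of these 20.8% of the 50-base windows occur in *Kat5*. Loss of TREX1, SAMHD1, RNase H2 or ADAR function is known to cause the same IFN-driven disease in humans. *Irf7* was 78.5-fold above *Irf3* (95% CI, 74.2 to 83.2), but 54.0-fold per longest transcript and 79.0-fold per coding length. Both encode substrates of the kinases described above. These genes were named after their values were seen, and what sets their levels was not tested.

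*Pcbp2*, which promotes degradation of MAVS, had 824 reads and 13.1 TPM, whereas its relative *Pcbp1* had 10467 reads and 474 TPM. Of the 50-base windows of *Pcbp2*, 31.5% occur in transcripts of other genes, so the ratio of the pair is uncertain.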
